A study of Homo sapiens with 15 samples.

Results

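Kruppel-like factors (KLFs) were examined in human granulosa cells that transiently expressed FOXL2WT or FOXL2C134W. The members were 10 genes taken by symbol from the gene table, KLF2, KLF4, KLF5, KLF6, KLF7, KLF9, KLF10, KLF11, KLF13 and KLF16. All 10 were found among its 37787 genes, and all 10 passed the filter on low counts that left 13868 genes for testing. The cells were HGrC1 at passage 14, an established human line of immortalized, non-luteinized granulosa cells whose own FOXL2 alleles are normal. FOXL2 is a forkhead transcription factor of the ovary, C134W is the recurrent mutation of adult-type granulosa cell tumors, SMAD3 is a transducer of TGF-beta signals, and FOXO1-3A is a mutant of FOXO1 that stays active in the nucleus. Cells were transfected with empty plasmids (Vectors), SMAD3 with FOXL2WT, SMAD3 with FOXL2C134W, or either pair together with FOXO1-3A (FOXL2WT+FOXO1 and FOXL2C134W+FOXO1), so SMAD3 was shared by all conditions but Vectors. Lipofection lasted 4 h, was followed by 24 h in serum-free medium, and gave 3 libraries per condition (A, B and C), 15 in all. The endogenous wild-type FOXL2 was present in every condition, and uptake of plasmids was transient, so each library averages over transfected and untransfected cells. In bulk RNA, fewer cells with a transcript and less of it per cell cannot be told apart.

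KLFs are zinc finger transcription factors that bind GC-rich and CACCC sequences, as do their relatives, the SP proteins. KLF2, KLF4, KLF5, KLF6 and KLF7 work mainly with the acetyltransferases EP300 and CREBBP, whereas KLF9, KLF10, KLF11, KLF13 and KLF16 carry a domain that recruits the corepressor SIN3A. KLF10 and KLF11 are known as early genes of TGF-beta signaling, KLF4 is a reprogramming factor and a brake on the cell cycle in several epithelia, and KLF9 and KLF13 are partners of steroid receptors in the reproductive tract.

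Library totals ran from 14962245 to 25339094 estimated counts, and the least abundant members still had 177 counts or more in every library. Plasmid RNA was checked first. FOXL2 stood at 8.28 to 9.54 CPM (counts scaled to the normalized size of the library) in Vectors, 554 to 566 in FOXL2WT, 121 to 175 in FOXL2C134W, 374 to 401 in FOXL2WT+FOXO1 and 139 to 176 in FOXL2C134W+FOXO1. SMAD3 stood at 240 to 263 CPM in Vectors, 2595 to 2889 in FOXL2WT, 812 to 885 in FOXL2C134W, 957 to 976 in FOXL2WT+FOXO1 and 379 to 411 in FOXL2C134W+FOXO1. FOXO1 stood at 11.6 to 13.8 CPM in the 9 libraries without its plasmid, 104 to 132 in FOXL2WT+FOXO1 and 39.1 to 47.2 in FOXL2C134W+FOXO1. The plasmid genes were thus raised in the conditions that name them. Counts per gene do not tell C134W from wild type, so that label was not checked. The mutant was compared with the wild type at lower FOXL2 and SMAD3 RNA, and FOXO1 was added with lower SMAD3 RNA. For protein, the paper reported balanced FOXL2WT, FOXL2C134W and FOXO1 by immunoblot of samples cultured in parallel, and did not name SMAD3 there. The part of the RNA differences in the results below was not tested. Among granulosa markers KRT8, KRT18, GATA4 and FST had 637 counts or more in every library. Fewer were found for INHBA (104 to 202 counts), NR5A1 (83 to 156), HSD17B1 (53 to 111) and AMH (14 to 43). FSHR had no count in any library, INHA and CYP19A1 had at most 4, and AMHR2 had at most 7. Of 17 markers of other cells, LHCGR was at 0 and PTPRC, CD3E, DDX4 and CYP17A1 had at most 5 counts in every library, whereas ZP3 (125 to 191 counts), EPCAM (71 to 188), CDH5 (33 to 102) and STAR (32 to 88) were present. Their summed level was 130 to 159.5 TPM (reads per transcript length, scaled to the library) in Vectors and 116 to 139 TPM in the other conditions, of which CD68 (91.8 to 131 TPM), a lysosomal protein of macrophages that many cells also make, held most. CD68 and the receptor TEK passed the edgeR test as lower than in Vectors in FOXL2WT and in FOXL2C134W. They were 2 of 10 such markers tested, beside 6.07% and 14.7% of all genes that passed, and no other of the 10 passed. Of 8 granulosa markers tested besides FOXL2, HSD17B1 was higher and GATA4 lower in FOXL2WT than in Vectors, beside 6.07% of all genes. KRT18 was higher in FOXL2C134W than in Vectors, beside 14.7%, and no further call was made in edgeR. Their part in the differences from Vectors was not tested.

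The bases before a RefSeq start of transcription are shown for KLF4, the member with the largest differences. They are also shown for KLF11, which was lower in FOXL2C134W than in FOXL2WT as KLF4 was, and for KLF7, which was higher. RefSeq gave starts for 9 of the 10 members (GRCh38.p14), and the 250 bases before each start were searched on both strands for 6 motifs. Capitals mark the GC box GGGCGG, the CACCC box and the SMAD site CAGAC, each read on either strand. KLF4 is read from chr9:107489770-107490019 on the minus strand. KLF11 is read from chr2:10043579-10043828 on the plus strand and KLF7 from chr2:207165949-207166198 on the minus strand. KLF11 and KLF7 have other RefSeq starts, and starts were not matched to transcripts. In GENCODE 44 these genes begin further upstream, at chr9:107490482, chr2:10042849 and chr2:207173856. The stretches thus lie inside the annotated genes, and marked letters may be transcribed.
KLF4: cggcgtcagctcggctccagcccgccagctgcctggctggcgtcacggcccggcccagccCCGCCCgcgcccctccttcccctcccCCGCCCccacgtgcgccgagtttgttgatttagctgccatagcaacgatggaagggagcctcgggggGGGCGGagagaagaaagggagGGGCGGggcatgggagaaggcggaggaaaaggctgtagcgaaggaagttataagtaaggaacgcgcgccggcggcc
KLF11: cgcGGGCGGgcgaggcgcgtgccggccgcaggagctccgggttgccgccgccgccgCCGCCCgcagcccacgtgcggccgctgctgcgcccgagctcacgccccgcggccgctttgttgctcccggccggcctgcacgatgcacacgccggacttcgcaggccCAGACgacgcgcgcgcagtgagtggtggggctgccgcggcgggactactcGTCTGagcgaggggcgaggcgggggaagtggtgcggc
KLF7: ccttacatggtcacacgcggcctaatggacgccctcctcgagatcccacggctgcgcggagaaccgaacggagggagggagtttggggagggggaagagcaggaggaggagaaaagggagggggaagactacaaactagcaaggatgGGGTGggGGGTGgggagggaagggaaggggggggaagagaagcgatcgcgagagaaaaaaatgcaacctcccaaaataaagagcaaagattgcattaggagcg
The KLF4 sequence held 4 GC boxes, against 7.63% of all 35116 RefSeq starts with at least 4. The KLF11 sequence held 2 GC boxes and 2 CAGAC sites, and at least 2 of each were found in 24.3% and 8.84% of starts. The KLF7 sequence held 2 CACCC boxes, as 23.1% of starts hold at least 2. Other RefSeq starts of KLF7 and KLF11, not shown, held up to 4 and 6 GC boxes. The forkhead motif GTAAACA, the SMAD palindrome GTCTAGAC and the AP-1 motif TGANTCA were in none of the 14 starts of these 9 members, against 2.98%, 0.182% and 6.57% of all starts. A match is a string of letters and was not checked for binding.

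In TPM, which corrects for transcript length and so allows genes to be compared, KLF6, an early-response factor that is lost in several tumors, was the most abundant member in every condition. It averaged 106 TPM ± 2.11 (SD, n = 3) in Vectors, and its condition means ran from 103 TPM in FOXL2WT+FOXO1 to 110.1 TPM in FOXL2C134W. KLF10 came second, with 56.1 TPM ± 0.94 in Vectors and condition means of 47.3 to 59.3 TPM. KLF2, a factor of endothelial quiescence, and KLF5, a factor of proliferating epithelia, followed at 28.8 TPM ± 2.22 and 18.4 TPM ± 0.60 in Vectors. KLF6 alone held 38.1% to 40.6% of the summed TPM of the 10 members, and KLF6 and KLF10 did not overlap with each other or with any other member in any condition. KLF11, KLF16, KLF4 and KLF7 lay between 11.3 and 13.7 TPM in Vectors, where each overlapped with its neighbor in that order. KLF9 (9.55 TPM) and KLF13 (5.26 TPM) were the lowest in Vectors and did not overlap with the member above them. KLF4 moved down, from rank 7 in Vectors to rank 8 in FOXL2WT, rank 9 in both conditions with FOXO1 and rank 10 in FOXL2C134W. In FOXL2C134W its range of 5.11 to 6.15 TPM overlapped with that of KLF13, so the last 2 ranks were not separated there, and the same 2 genes overlapped in FOXL2C134W+FOXO1. KLF7, KLF11 and KLF16 also exchanged places among ranks 5 to 8.

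**Figure D1:**
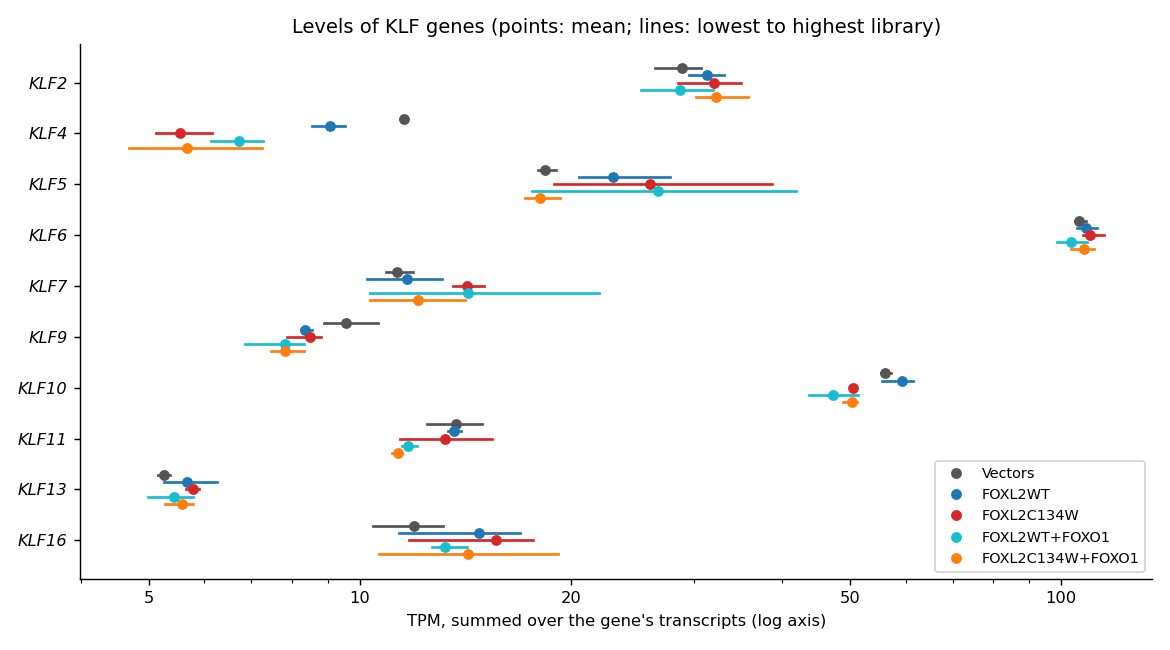
Level of each KLF gene in TPM on a log axis, with the mean of 3 libraries as a point and the lowest to highest library as a line, coloured by condition. KLF6 lies above 98 TPM in every library, and the points of KLF4 spread from 5.54 TPM in FOXL2C134W to 11.6 TPM in Vectors.

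TPM of a gene is sensitive to short transcripts. KLF5 reached 38.7 TPM in 1 library of FOXL2C134W and 41.8 TPM in 1 of FOXL2WT+FOXO1, and in each the 130-base transcript KLF5-202 was given about 20 TPM (20.5 and 20.3). In CPM, which counts reads whatever the transcript, KLF5 stayed between 43.0 and 53.5 in all 15 libraries. KLF7 likewise reached 21.9 TPM in 1 library of FOXL2WT+FOXO1, with 11.3 TPM in the 438-base transcript KLF7-210. Conditions were therefore compared in CPM and tested on counts.

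Counts were tested with edgeR, and a gene passed at an adjusted p under 0.05. The number of members that passed is set beside the share of all genes tested that passed. In FOXL2WT against Vectors 1 of 10 members passed, KLF4, beside 6.07% of all genes tested. In FOXL2C134W against Vectors 4 of 10 passed, KLF4, KLF9 and KLF10 lower and KLF7 higher, beside 14.7% of all genes (7.24% lower and 7.48% higher). In FOXL2C134W against FOXL2WT 4 of 10 passed, KLF4, KLF10 and KLF11 lower and KLF7 higher, beside 11.2% of all genes (4.12% lower and 7.13% higher). The median log2 fold change of the members in these 3 comparisons was 0.09, 0.00 and -0.05, against 0.00, 0.00 and -0.01 over all genes. By the simpler criterion of libraries that did not overlap, 5, 7 and 5 members qualified, beside 31.1%, 31.8% and 30.4% of all genes. The comparisons share libraries, so their counts are not independent of each other.

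**Figure D2:**
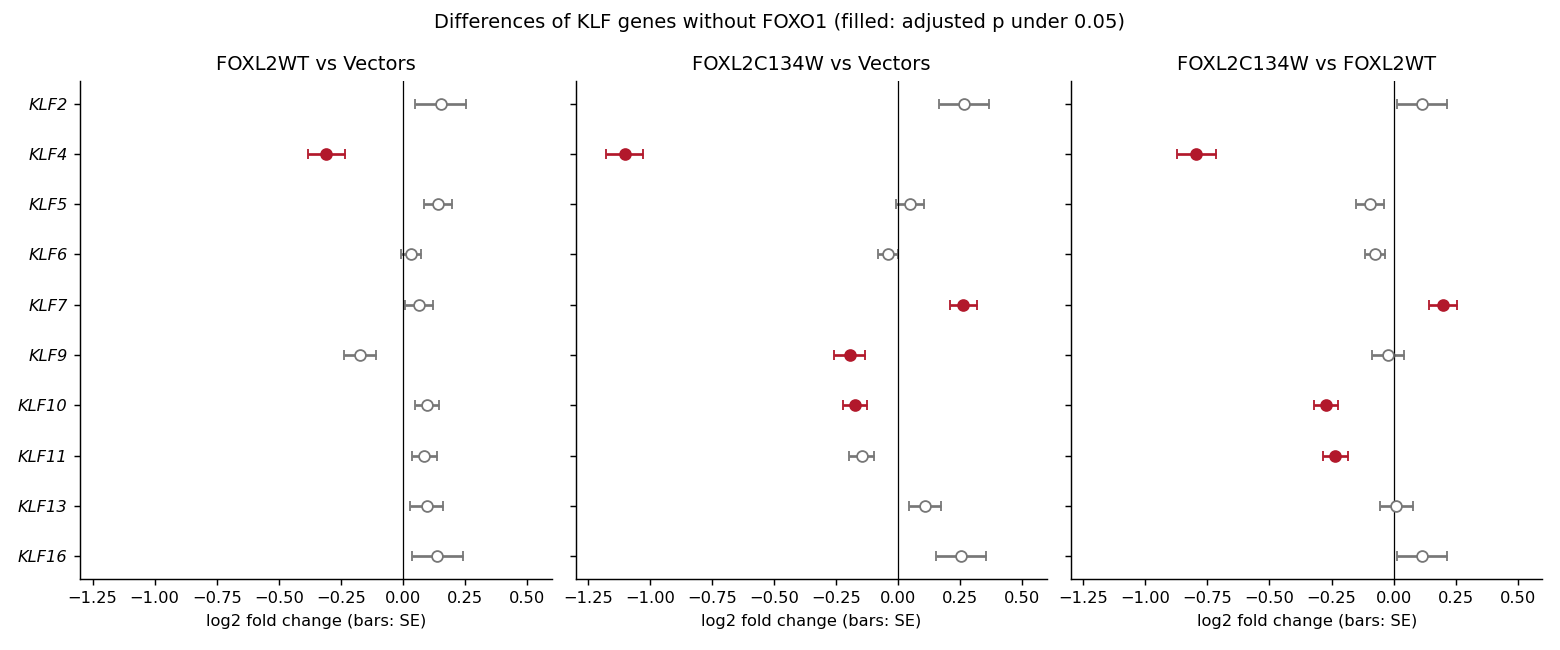
Log2 fold change of each KLF gene with its SE in FOXL2WT against Vectors, FOXL2C134W against Vectors and FOXL2C134W against FOXL2WT, with filled points for an edgeR adjusted p under 0.05. KLF4 lies at -1.10 and -0.79 in the comparisons of the mutant, at -0.31 in FOXL2WT against Vectors, and the filled points of other genes lie between -0.27 and 0.26.

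KLF4 differed most between conditions. It stood at 19.4, 20.3 and 20.2 CPM in Vectors A, B and C, and at 16.6, 16.2 and 15.6 CPM in FOXL2WT. It stood at 9.46, 8.52 and 9.91 CPM in FOXL2C134W. With FOXO1 it stood at 12.3, 12.4 and 13.4 CPM in FOXL2WT+FOXO1, and at 8.17, 8.95 and 9.46 CPM in FOXL2C134W+FOXO1. The libraries of Vectors, FOXL2WT, FOXL2WT+FOXO1 and FOXL2C134W fell in this order with no overlap between neighbors, and only FOXL2C134W and FOXL2C134W+FOXO1 overlapped. Its condition means spanned 1.17 on the log2 scale, against a median of 0.21 over all genes tested, while its spread within conditions (SD 0.08 in log2 CPM) was below the median of 0.10.

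Against Vectors, KLF4 fell by 1.10 ± 0.08 (SE) on the log2 scale in FOXL2C134W (edgeR adjusted p = 5e-08) and by 0.31 ± 0.07 in FOXL2WT (edgeR adjusted p = 0.018). FOXL2C134W lay 0.79 ± 0.08 below FOXL2WT (log2 fold change -0.79, edgeR adjusted p = 7.9e-06), a decrease to 0.58 of the wild-type level. These adjusted p-values are over all 13868 genes. Ordered from the lowest log2 fold change, KLF4 was 79th of all genes in FOXL2C134W against Vectors and 119th in FOXL2C134W against FOXL2WT. Both of these differences passed the threshold in each of the 9 alternative fits and in each of the 6 fits without 1 library, with log2 fold changes of -1.15 to -1.04 and -0.84 to -0.73. The difference between FOXL2WT and Vectors missed the threshold in 4 of 6 fits without 1 library (replicate B or C of either condition), with edgeR adjusted p of 0.055 to 0.069, and in DESeq2 with transcript length offsets (DESeq2 adjusted p = 0.21).

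**Figure D3:**
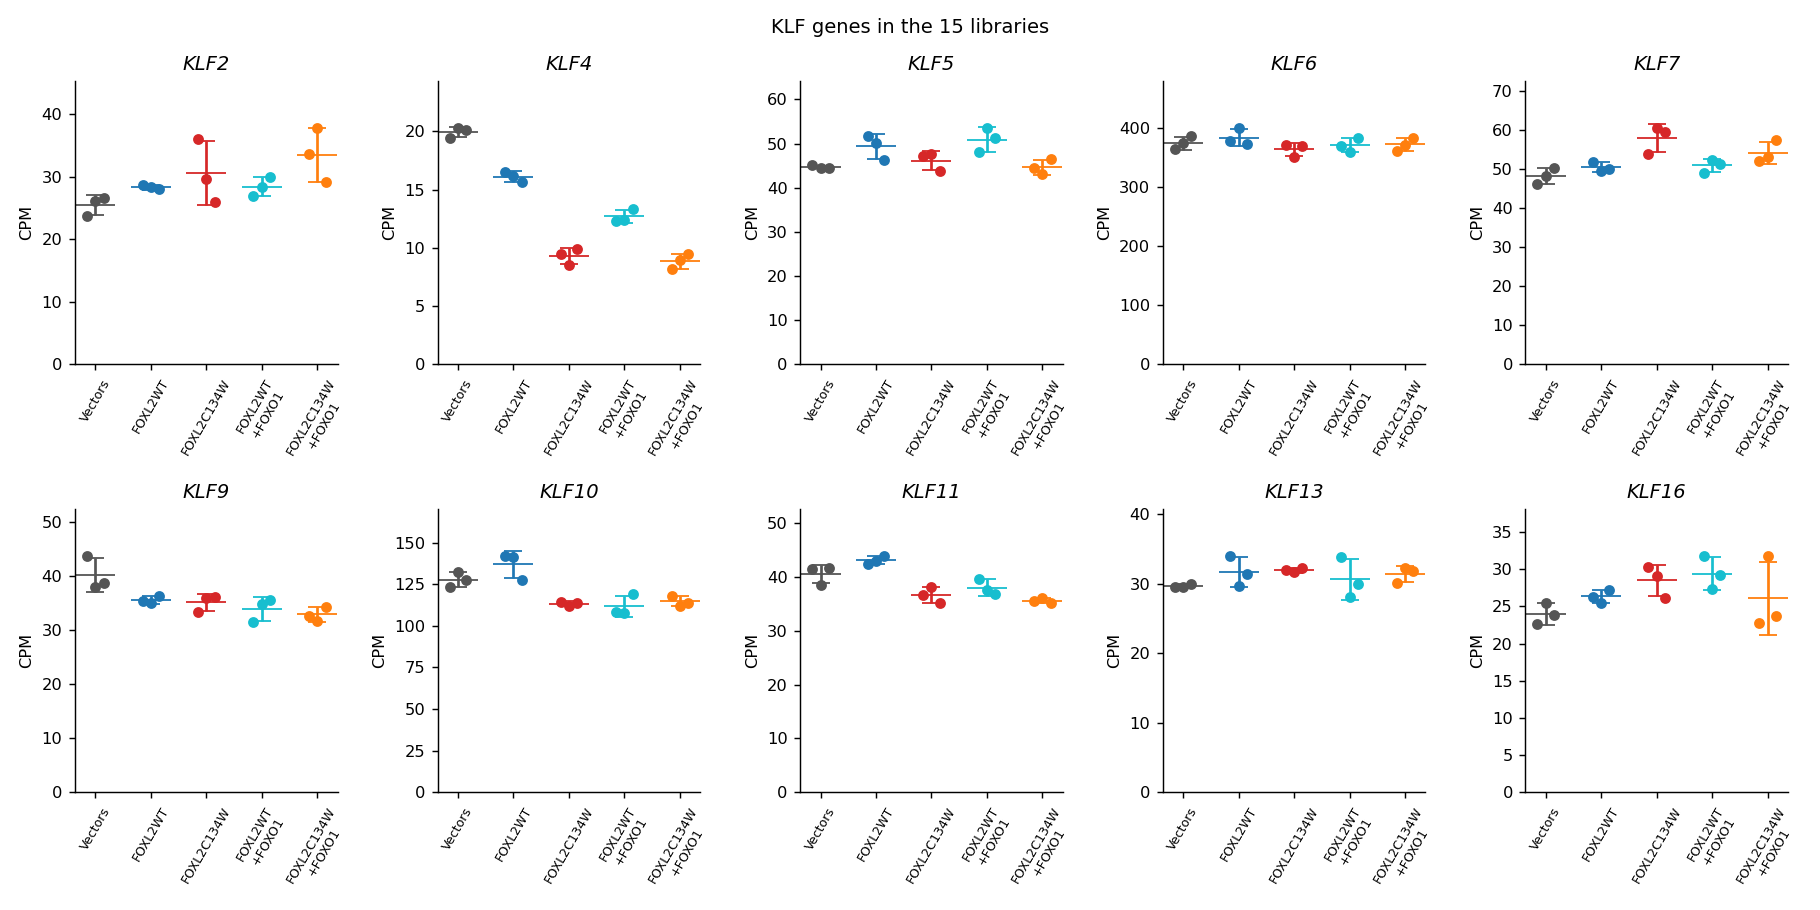
CPM of the 10 KLF genes in the 15 libraries, 1 panel per gene with its own axis from 0, with libraries as points and the mean ± SD of 3 libraries as lines. KLF4 falls from about 20 CPM in Vectors (mean 19.96) to 9.30 CPM in FOXL2C134W, whereas KLF6 and KLF13 lie at similar heights in every condition.

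KLF10, known as TGF-beta inducible early gene, had its highest values in FOXL2WT, 142, 141 and 128 CPM. It stood at 123, 132 and 128 CPM in Vectors, at 114, 112 and 114 CPM in FOXL2C134W, at 108, 108 and 119 CPM in FOXL2WT+FOXO1, and at 118, 112 and 114 CPM in FOXL2C134W+FOXO1. All libraries with the mutant or with FOXO1 lay below all libraries of Vectors and FOXL2WT. KLF10 was lower in FOXL2C134W than in FOXL2WT by a log2 fold change of -0.27 ± 0.05 (edgeR adjusted p = 0.0014) and lower than in Vectors by -0.17 ± 0.05 (edgeR adjusted p = 0.021). The first difference passed in all 9 alternatives and all 6 fits without 1 library. The second missed the threshold in 4 of these 6 fits (without replicate B or C of either condition), with edgeR adjusted p of 0.054 to 0.10, and in DESeq2 with transcript length offsets (DESeq2 adjusted p = 0.067).

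KLF11, its closest relative and also a TGF-beta inducible factor, gave a similar order at a lower level. It stood at 42.5, 42.9 and 43.9 CPM in FOXL2WT, at 41.5, 38.6 and 41.7 CPM in Vectors, and at 36.6, 38.2 and 35.1 CPM in FOXL2C134W. FOXL2C134W did not overlap with either condition. The log2 fold change was -0.23 ± 0.05 against FOXL2WT (edgeR adjusted p = 0.0064), and it passed in all 6 fits without 1 library. It was -0.15 ± 0.05 against Vectors, which did not pass (edgeR adjusted p = 0.06). In DESeq2 with transcript length offsets the difference from FOXL2WT was -0.07 (DESeq2 adjusted p = 0.77). The reads of KLF11 were mostly split between the 3885-base KLF11-206 and the 4035-base KLF11-201, which are of similar length. Their shares varied widely in FOXL2WT, where KLF11-206 held 64.6% ± 24.5 of the TPM of the gene (SD, n = 3). The 559-base KLF11-204 was given 4.09 TPM in 1 library of FOXL2C134W, 26.5% of the gene, and 0 TPM in the other conditions. The offsets are computed from the shares of all transcripts of the gene, and the part of each transcript was not tested.

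KLF7, a factor of neurons and preadipocytes, was the 1 member that rose past the threshold. It stood at 46.3, 48.3 and 50.4 CPM in Vectors, at 51.9, 49.5 and 50.1 CPM in FOXL2WT, and at 54.0, 60.5 and 59.5 CPM in FOXL2C134W. FOXL2C134W lay above both other conditions without overlap, by 0.26 ± 0.06 over Vectors (edgeR adjusted p = 0.0033) and by 0.20 ± 0.06 over FOXL2WT (edgeR adjusted p = 0.027). The difference from Vectors passed in each fit without 1 library. That from FOXL2WT missed the threshold in 4 of these 6 fits (without replicate B or C of either condition), with edgeR adjusted p of 0.072 to 0.12, and was 0.09 when counts were corrected for gene length (edgeR adjusted p = 0.25). In DESeq2 with transcript length offsets neither passed (0.32 and 0.26, DESeq2 adjusted p = 0.48 and 0.57). KLF7-201, the leading transcript, has 8365 bases. In FOXL2C134W+FOXO1 the values were 52.1, 53.1 and 57.5 CPM, which overlapped with those of FOXL2C134W, and in FOXL2WT+FOXO1 they were 49.1, 52.5 and 51.5 CPM.

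KLF9, a factor induced by steroid and thyroid hormones in other tissues, was highest in Vectors, at 43.7, 38.0 and 38.7 CPM. It stood at 35.4, 35.0 and 36.3 CPM in FOXL2WT and at 33.2, 35.9 and 36.2 CPM in FOXL2C134W, which overlapped with each other but not with Vectors. The log2 fold change against Vectors was -0.20 ± 0.06 in FOXL2C134W (edgeR adjusted p = 0.043) and -0.17 ± 0.06 in FOXL2WT (edgeR adjusted p = 0.12). The former passed in 4 of 9 alternatives and in 1 of 6 fits without 1 library. Without Vectors replicate A it was -0.12 (edgeR adjusted p = 0.25). All 6 libraries with FOXO1 lay between 31.4 and 35.6 CPM, below all libraries of Vectors.

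KLF2, KLF5, KLF6, KLF13 and KLF16 passed the threshold in none of the 7 comparisons under the edgeR fit of all libraries. KLF6 was the steadiest member, at 351 to 399 CPM over the 15 libraries, with log2 fold changes of -0.08 to 0.03 in the 6 comparisons between 2 conditions and SEs of 0.04. KLF13 stood at 28.1 to 34.0 CPM and KLF5 at 43.0 to 53.5 CPM. KLF2 and KLF16, whose SEs of about 0.10 were the largest among the members, had their lowest means in Vectors (25.5 and 24.0 CPM). KLF2 stood at 36.1, 29.7 and 26.0 CPM in FOXL2C134W, so that its log2 fold change of 0.27 ± 0.10 against Vectors did not pass (edgeR adjusted p = 0.087), and it was 0.37 without FOXL2C134W replicate C (edgeR adjusted p = 0.020) and 0.13 without replicate A (edgeR adjusted p = 0.38). KLF16 had a log2 fold change of 0.25 ± 0.10 in the same comparison (edgeR adjusted p = 0.10). Of the 9 alternative fits, 3 passed KLF2 and 2 passed KLF16 in this comparison, and 2 passed KLF6 in FOXL2C134W against FOXL2WT (-0.08 ± 0.04, edgeR adjusted p = 0.25). Their spread within conditions was 0.14 in log2 CPM for both, above the median of 0.10 over all genes, and across the 15 libraries their deviations from the condition means had a Pearson r of 0.60. The leading transcripts of these genes are the richest in G and C of the members, with 61.2% for KLF2-201 and 67.8% for KLF16-201, against 39.0% to 57.7% for the others. The KLF2-201 sequence used is that of GENCODE 44, which is longer than the version the authors used. The part of base composition in this spread was not tested.

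With FOXO1 present, FOXL2C134W+FOXO1 was compared with FOXL2WT+FOXO1. KLF4 was again lower with the mutant, by a log2 fold change of -0.52 ± 0.08 (edgeR adjusted p = 0.0075), and it was the 1 member of 10 that passed, beside 0.144% of all genes. It missed the threshold without FOXL2C134W+FOXO1 replicate A (-0.47, edgeR adjusted p = 0.082), in a fit of these 6 libraries alone (-0.52, edgeR adjusted p = 0.11) and in DESeq2 with transcript length offsets (-0.30, DESeq2 adjusted p = 0.47). KLF10 did not differ past the threshold, with a log2 fold change of 0.04 ± 0.05 (edgeR adjusted p = 0.78), nor did KLF11 (-0.09 ± 0.05, edgeR adjusted p = 0.45) or KLF7 (0.09 ± 0.06, edgeR adjusted p = 0.52). The libraries of KLF4, KLF5 and KLF11 did not overlap, 3 of 10 members beside 15.2% of all genes, and KLF5 had a log2 fold change of -0.19 ± 0.06 (edgeR adjusted p = 0.2).

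The addition of FOXO1 to FOXL2WT lowered KLF10 by a log2 fold change of -0.29 ± 0.05 (edgeR adjusted p = 0.031). KLF10 was 1 of 7 genes that passed in this comparison, 0.0505% of all genes, of which the transfected genes made up 3. KLF4 had a log2 fold change of -0.34 ± 0.08 (edgeR adjusted p = 0.15) and KLF11 one of -0.18 ± 0.05 (edgeR adjusted p = 0.28), and for all 3 genes the libraries did not overlap. Libraries did not overlap for 4 of 10 members, KLF16 in the higher direction, beside 14.5% of all genes. The addition of FOXO1 to FOXL2C134W moved no member past the threshold, nor any at an unadjusted p under 0.05 (edgeR) or in DESeq2, beside 0.714% of all genes that passed. The log2 fold changes there ran from -0.13 for KLF16 to 0.13 for KLF2, and every member overlapped between the conditions, beside 14% of all genes that did not.

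The difference between these effects of FOXO1 was tested as an interaction. For KLF10 the effect in FOXL2C134W exceeded that in FOXL2WT by 0.31 ± 0.07 on the log2 scale (edgeR adjusted p = 0.033), and it was the 1 member of 10 past the threshold, beside 1.38% of all genes. For KLF4 the difference was 0.27 ± 0.11 (edgeR adjusted p = 0.31) and for KLF11 0.14 ± 0.07 (edgeR adjusted p = 0.45), which did not pass. For KLF16 it had the opposite sign, -0.28 ± 0.14 (edgeR adjusted p = 0.44), and among the 12 fits without 1 library it passed only without FOXL2C134W+FOXO1 replicate B (-0.46, edgeR adjusted p = 0.030). Both results of KLF10 lie near the threshold. They were lost in a fit of only the libraries compared (edgeR adjusted p = 0.063 for FOXO1 in FOXL2WT and 0.054 for the interaction) and with a replicate block (0.06 and 0.05). Its fall with FOXO1 in FOXL2WT missed it in 4 of 6 fits without 1 library (replicate A or B of either condition), with edgeR adjusted p of 0.14 to 0.27, and the interaction missed it in 8 of 12 (without replicate A or B of FOXL2WT or FOXL2WT+FOXO1, replicate B or C of FOXL2C134W, and replicate A or C of FOXL2C134W+FOXO1), with edgeR adjusted p of 0.061 to 0.12. SMAD3 RNA fell with FOXO1 by 1.51 on the log2 scale in FOXL2WT and by 1.11 in FOXL2C134W, FOXL2 RNA fell by 0.55 in FOXL2WT and had a difference of 0.05 in FOXL2C134W, and FOXO1 RNA rose by 3.26 and 1.85. The part of these unequal RNA levels in the interaction was not tested.

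**Figure D4:**
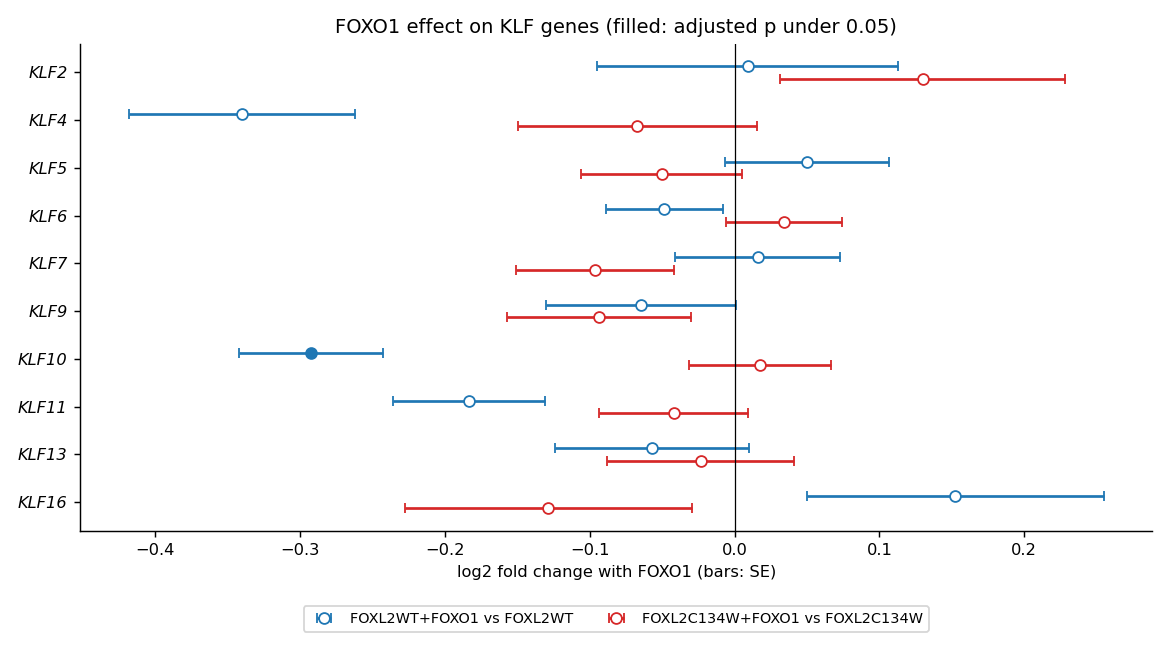
Log2 fold change of each KLF gene with its SE when FOXO1 was added to FOXL2WT (blue) or to FOXL2C134W (red), with filled points for an edgeR adjusted p under 0.05. KLF10 in FOXL2WT, at -0.29, is the 1 filled point, and the points of KLF4, KLF10 and KLF11 lie further left in FOXL2WT than in FOXL2C134W.

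The reads of KLF4 came from several transcripts. The leading one by estimated reads was KLF4-205, annotated as a retained intron of 2393 bases that begins inside the gene and ends where the coding transcripts end, so that the assignment of reads among them is an estimate. KLF4-205 averaged 6.32 TPM ± 0.40 in Vectors, 4.97 TPM ± 0.16 in FOXL2WT and 2.65 TPM ± 0.08 in FOXL2C134W, with no overlap between libraries. The coding KLF4-206 averaged 4.27 TPM ± 0.17 in Vectors, 3.05 TPM ± 0.97 in FOXL2WT and 2.31 TPM ± 0.97 in FOXL2C134W, and here FOXL2WT and FOXL2C134W overlapped. The summed TPM of coding transcripts was 4.99 ± 0.56 in Vectors, 4.09 ± 0.62 in FOXL2WT and 2.76 ± 0.73 in FOXL2C134W. The share of retained introns in the TPM of KLF4 was 56.8% ± 5.37 in Vectors, 55.0% ± 4.52 in FOXL2WT and 50.6% ± 8.26 in FOXL2C134W. These differences were within the spread between libraries. With FOXO1 the share was 53.0% ± 0.91 in FOXL2WT+FOXO1 and 63.6% ± 3.40 in FOXL2C134W+FOXO1. The range of the latter, 61.5% to 67.5%, did not overlap with FOXL2WT+FOXO1 (52.4% to 54.1%) or FOXL2C134W (41.5% to 57.7%). This separation rests on minor transcripts. The 800-base KLF4-202 (26.1%) and KLF4-204 (12.5%) were each given TPM in 1 library of FOXL2C134W+FOXO1. KLF4-205 alone held 35.4% to 67.5% there, which overlapped with FOXL2WT+FOXO1 (48.2% to 54.1%) and FOXL2C134W (41.5% to 52.6%). KLF4-206 averaged 1.81 TPM ± 0.38 in FOXL2WT+FOXO1 and 1.97 TPM ± 0.75 in FOXL2C134W+FOXO1. The other coding transcript, KLF4-201, averaged 1.36 TPM ± 0.13 and 0.10 TPM ± 0.18. The summed TPM of coding transcripts was thus 3.16 ± 0.33 in FOXL2WT+FOXO1 (2.82 to 3.47) and 2.08 ± 0.62 in FOXL2C134W+FOXO1 (1.64 to 2.79), without overlap. KLF10, by contrast, was read almost wholly as KLF10-201, which held at least 98.3% of its TPM in every library.

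**Figure D5:**
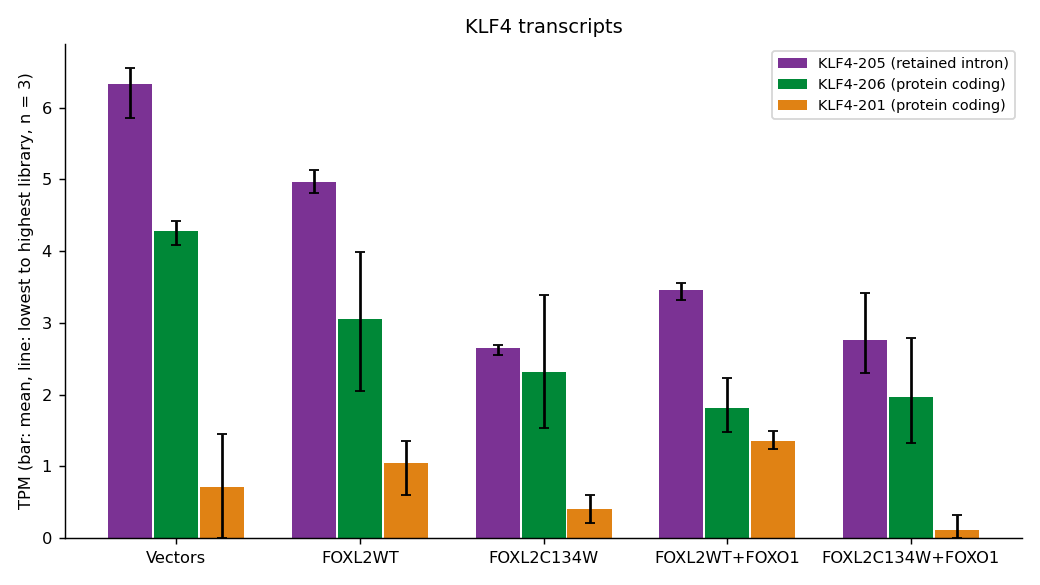
TPM of the 3 main transcripts of KLF4 in the 5 conditions, with the mean of 3 libraries as a bar and the lowest to highest library as a line. KLF4-205 falls from 6.32 TPM in Vectors to 2.65 TPM in FOXL2C134W with short lines, whereas the lines of KLF4-206 in FOXL2WT and FOXL2C134W overlap.

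Of 17 other genes of the KLF and SP family 9 were tested, and 0 passed in edgeR in any of the 7 comparisons. Of all genes, 6.07% passed in FOXL2WT against Vectors, 14.7% in FOXL2C134W against Vectors and 11.2% in FOXL2C134W against FOXL2WT. In the comparisons with FOXO1 the share was 0.0505% to 1.38%. A count of 0 of 9 is not far from these shares. In FOXL2C134W against FOXL2WT 2 of the 9 had an unadjusted p under 0.05, and 1 passed in DESeq2. Their log2 fold changes ran from -0.52 for KLF17, at under 1 CPM (0.21 and 0.32), to 0.25 for SP2. For the ubiquitous activator of GC boxes SP1 the log2 fold change was 0.08 ± 0.07 (edgeR adjusted p = 0.51), and for its relative SP3 it was -0.00 ± 0.05 (edgeR adjusted p = 0.98). The lowest edgeR adjusted p in this comparison was 0.054, for KLF12 (0.22 ± 0.07) and SP2 (0.25 ± 0.08).

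Among 12 cofactors of KLFs, 2 rose and 0 fell in FOXL2C134W against FOXL2WT (edgeR), beside 7.13% of all genes that rose. Against Vectors 3 rose and 0 fell in FOXL2C134W, beside 7.48%. In FOXL2WT against Vectors 0 passed in edgeR (3 at an unadjusted p under 0.05, and 1 in DESeq2), beside 6.07% of all genes that passed. CREBBP rose from 30.3 CPM ± 2.19 to 53.7 CPM ± 6.78 (log2 fold change 0.82 ± 0.10, edgeR adjusted p = 6e-05), and its relative EP300 rose from 61.2 CPM ± 3.56 to 87.2 CPM ± 10.2 (0.51 ± 0.07, edgeR adjusted p = 0.00023). SIN3A and the other 9 cofactors did not pass. The addition of FOXO1 to FOXL2C134W lowered CREBBP by 0.53 ± 0.10 on the log2 scale (edgeR adjusted p = 0.017), beside 0.714% of all genes that passed. When FOXO1 was added to FOXL2WT 0 cofactors passed in edgeR (2 at an unadjusted p under 0.05, and 0 in DESeq2), beside 0.0505%. The interaction passed for CREBBP (-0.87 ± 0.14, edgeR adjusted p = 0.0065) and EP300 (-0.49 ± 0.10, edgeR adjusted p = 0.024), beside 1.38% of all genes. Fits without 1 library are not given for the cofactors. The median log2 fold change of the cofactors in FOXL2C134W against FOXL2WT was 0.09, against -0.01 over all genes.

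The MEK5-ERK5-MEF2 route, which drives KLF2 and KLF4 in endothelium, had 9 of 10 genes tested. In FOXL2C134W against FOXL2WT, HDAC7, a repressor of MEF2, rose by 0.24 ± 0.05 (edgeR adjusted p = 0.0019) and MEF2D by 0.23 ± 0.05 (edgeR adjusted p = 0.0088), and none of the 9 fell past the threshold, beside 11.2% of all genes that passed. The same 2 genes passed as higher in FOXL2C134W against Vectors, beside 7.48% of all genes. HDAC7 passed in the interaction (-0.29 ± 0.06, edgeR adjusted p = 0.033), beside 1.38% of all genes. Of 24 genes that have been described as targets of KLFs, 1 rose and 4 fell in this comparison, beside 7.13% and 4.12% of all genes. The cell cycle inhibitor CDKN1B fell by 0.16 ± 0.04 (edgeR adjusted p = 0.0092), the thioredoxin inhibitor TXNIP by 0.30 ± 0.05 (edgeR adjusted p = 0.00068) and the sphingosine receptor S1PR1 by 0.26 ± 0.05 (edgeR adjusted p = 0.0025). CDKN1C fell from 2.12 to 0.99 CPM, and ENG, a coreceptor of TGF-beta, rose. Against Vectors, 3 rose and 4 fell in FOXL2WT, beside 6.07% of all genes that passed, and 4 rose and 7 fell in FOXL2C134W, beside 14.7%. In FOXL2C134W+FOXO1 against FOXL2WT+FOXO1 0 of 24 passed in edgeR (3 at an unadjusted p under 0.05, and 2 in DESeq2), beside 0.144% of all genes. When FOXO1 was added, 0 passed in edgeR in FOXL2WT (5 and 1), beside 0.0505%, and 0 in FOXL2C134W (2 and 0), beside 0.714%. In the interaction 0 passed in edgeR (5 and 2), beside 1.38%. With shares this low, 0 of 24 is near the share of all genes. The median of the 24 genes in FOXL2C134W against FOXL2WT was -0.04. CDKN1A, which KLF4 and KLF6 activate in other cells, was 1 of the 7 that fell in FOXL2C134W against Vectors (by 0.27 ± 0.06, edgeR adjusted p = 0.0041). It did not pass in FOXL2C134W against FOXL2WT or in FOXL2WT against Vectors, and a link to KLF4 was not tested.

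Since KLF4, KLF6 and KLF10 are themselves early-response genes, 20 immediate early genes were examined, of which 18 were tested. Against Vectors 2 rose in FOXL2WT, beside 6.07% of all genes that passed, and 2 rose and 3 fell in FOXL2C134W, beside 14.7%. In FOXL2C134W against FOXL2WT 2 rose and 3 fell, beside 11.2%. ATF3, a stress-induced repressor, fell from 41.7 CPM ± 3.96 to 21.5 CPM ± 0.92 (log2 fold change -0.95 ± 0.08, edgeR adjusted p = 5.8e-07). JUNB fell by 0.42 ± 0.09 (edgeR adjusted p = 0.0061), FOSB fell from 2.37 to 1.13 CPM, and FOSL1 rose by 0.28 ± 0.05 (edgeR adjusted p = 0.0013), as did EGR1, at a low level (6.66 CPM ± 1.27 against 9.35 CPM ± 0.64). ATF3 fell also when FOXO1 was added to FOXL2WT (-0.55 ± 0.08, edgeR adjusted p = 0.004). It was lower in FOXL2C134W+FOXO1 than in FOXL2WT+FOXO1 (-0.62 ± 0.08, edgeR adjusted p = 0.00065). In both comparisons it was the 1 gene of this list that passed in edgeR, beside 0.0505% and 0.144% of all genes. DESeq2 gave no adjusted p for ATF3 in the second. The median log2 fold change of the list was -0.09 in FOXL2C134W against FOXL2WT, against -0.01 over all genes.

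For each of the 5 members that passed in at least 1 comparison, the 2 genes with the most similar log2 CPM over the 15 libraries were taken by Pearson r, as a description. The 15 libraries fall into 5 conditions and are not independent points. KLF4 was closest to TNFAIP3 (r = 0.98), an inhibitor of NF-kappaB signaling, and PMAIP1 (r = 0.97), a proapoptotic member of the BCL2 family. KLF11 was closest to ATF3 (r = 0.90) and the small MAF protein MAFG (r = 0.90). KLF10 was closest to HMGN4 (r = 0.95) and TMEM64 (r = 0.90), KLF7 to the ribosome biogenesis factor PDCD11 (r = 0.93) and the exchange factor DOCK5 (r = 0.93), and KLF9 to the inositol transporter SLC2A13 (r = 0.93) and PTGFRN (r = 0.92). Among the members, the levels of KLF4 went with those of KLF11 (r = 0.77), KLF10 (r = 0.71) and KLF9 (r = 0.69) and against those of KLF7 (r = -0.75). Within conditions the deviations of KLF4 went with those of KLF6 (r = 0.74) and against those of KLF11 (r = -0.63), over the same 15 libraries.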

How the data were processed

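RNA of 15 HGrC1 libraries was sequenced by the authors as stranded mRNA with 75-bp single-end reads and quantified with Salmon 1.1.0 on hg38. The deposited gene table holds estimated counts rounded to whole numbers, without normalization, and the deposited transcript tables hold TPM and estimated reads. Samples were assigned to conditions by their labels. In R 4.3.3 with edgeR 4.0.16, low counts were removed (filterByExpr), libraries were scaled with TMM, and all 15 libraries were fitted with one term per condition. Quasi-likelihood tests were adjusted by Benjamini-Hochberg over 13868 genes, and genes under 0.05 passed. Errors of log2 fold changes are SEs, and CPM and TPM are given with the SD of 3 libraries. The methods describe 15 separately lysed cell samples of 1 passage and do not say whether replicates came from separate days, so p-values measure the spread between such samples. TPM levels and correlations (log2 CPM, prior count 2) were not tested. Genome positions and motifs came from GENCODE 44 and RefSeq (GRCh38.p14). The GENCODE release used by the authors is not given in the sources used here. Across conditions, deviations of libraries with the same letter correlated at -0.164 to 0.124. With 3 libraries per condition these values cannot decide whether libraries of the same letter were handled together. The members and gene lists were chosen with earlier results of these data known. All members were named, as were up to 3 genes per list with the smallest adjusted p that passed in FOXL2C134W against FOXL2WT or when FOXO1 was added, and the 2 genes most like each member that passed. One gene of the cofactor list is not reported here and was left out of its counts. Other named genes of the lists and the markers were chosen after their values were seen. Alternatives were DESeq2 1.42.0, alone or with transcript length offsets, its size factors in edgeR, filters of at least 1 count in any or 10 in every library, only the libraries compared, a replicate block, a gene length correction (lowess, span 0.3), both together, and leaving out each library. Python 3.11.15 with pandas 2.3.3 and matplotlib 3.10.9 was used for summaries. The scripts were tested on simulated data.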

Additional observations from a re-analysis of the deposited data

Results flagged for a closer look

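KLF10 was singled out because the effect of FOXO1 on it differed between the FOXL2C134W and FOXL2WT backgrounds by a test of the difference itself, 0.31 on the log2 scale (edgeR interaction, adjusted p = 0.033). The 4 condition means were 137 CPM in FOXL2WT, 112 CPM in FOXL2WT+FOXO1, 113 CPM in FOXL2C134W and 115 CPM in FOXL2C134W+FOXO1, so FOXL2WT stood above the other 3. The DESeq2 adjusted p of the interaction was 0.0045, and the range over the 9 alternatives was 0.0016 to 0.054, with the call lost with only the libraries compared and with a replicate block (0.05), and in 8 of 12 fits without 1 library.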

How the results depend on the processing

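The numbers of members past the threshold stayed within 1.5 times the values reported under DESeq2, the size factors of DESeq2, both filters, the gene length correction and the block with that correction, with the exception of FOXL2C134W+FOXO1 against FOXL2WT+FOXO1 under DESeq2, which gave no value because its adjusted p for KLF4 was NA. DESeq2 with transcript length offsets gave 0 members in FOXL2WT against Vectors, 1 in FOXL2C134W against Vectors, 2 in FOXL2C134W against FOXL2WT, and 0 in FOXL2C134W+FOXO1 against FOXL2WT+FOXO1. With only the libraries compared, 0 members passed in FOXL2C134W+FOXO1 against FOXL2WT+FOXO1, in FOXL2WT+FOXO1 against FOXL2WT and in the interaction. The replicate block gave 0 members in FOXL2WT+FOXO1 against FOXL2WT (KLF10, adjusted p = 0.06) and 0 in the interaction (KLF10, adjusted p = 0.05). Only 5 of 15 libraries matched best with a library of the same letter. Without 1 library at a time, 0 to 1 members passed in FOXL2WT against Vectors, 2 to 3 in FOXL2C134W against Vectors, 3 to 4 in FOXL2C134W against FOXL2WT, 0 to 1 in FOXL2C134W+FOXO1 against FOXL2WT+FOXO1, 0 to 1 in FOXL2WT+FOXO1 against FOXL2WT, 0 to 0 in FOXL2C134W+FOXO1 against FOXL2C134W and 0 to 2 in the interaction. Where 1 library was left out, 2 remained. The causes were not tested. The number of all genes that passed ranged over the 9 alternatives from 459 to 1690 in FOXL2WT against Vectors (842 reported), 936 to 2320 in FOXL2C134W against Vectors (2041), 709 to 1954 in FOXL2C134W against FOXL2WT (1560), 9 to 446 in FOXL2C134W+FOXO1 against FOXL2WT+FOXO1 (20), 7 to 260 in FOXL2WT+FOXO1 against FOXL2WT (7), 32 to 463 in FOXL2C134W+FOXO1 against FOXL2C134W (99) and 114 to 551 in the interaction (192). Without 1 library of those compared, the same counts were 305 to 662, 1275 to 2126, 772 to 2120, 7 to 20, 2 to 7, 5 to 355 and 45 to 423.

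Of 414 alternative values of 27 tracked log2 fold changes, 357 kept their direction and side of the threshold. Of the rest, 48 fell short of it, 8 passed it and 1 changed sign. The last was KLF4 in FOXL2C134W+FOXO1 against FOXL2C134W, at 0.037 in DESeq2 with transcript length offsets and not past the threshold. Others, not tracked, also changed sign over the 9 alternatives. KLF7 in FOXL2C134W+FOXO1 against FOXL2WT+FOXO1 (0.09) reached -0.26, KLF5 in FOXL2C134W against FOXL2WT (-0.09) reached 0.14, and KLF16 in the interaction (-0.28) reached 0.02. None of these passed in any alternative. Levels as counts per kilobase moved by more than 1 SD in 17 of 50 cases. Depth was lowest for KLF4, with 177 to 504 counts per library.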
